A study of Mus musculus with 59 samples.

Results

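Intergenic H3K27ac peaks without H3K4me3 were examined in the mouse uterus across age. H3K27ac marks active promoters and enhancers, H3K4me3 marks promoters, and a region with H3K27ac but no H3K4me3 away from genes is the usual profile of a distal enhancer. A region belonged to this class when the authors' H3K27ac table gave it no gene, it lay on chromosomes 1 to 19 or X, and it overlapped no peak of the authors' H3K4me3 table. There were 7656 such regions among 54362 H3K27ac peaks (14.1% of the 54354 on those chromosomes). No measured level entered the choice.

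The study profiled pieces of snap-frozen endometrial tissue, labelled uterus, from C57/B6 mice. Groups were young animals of 9 to 11 weeks (n = 7), aged group 1 of 28 to 36 weeks (n = 4), aged group 2 of 42 to 48 weeks (n = 6) and aged group 3 of 54 to 65 weeks (n = 10). Each of the 27 animals gave 1 native, micrococcal nuclease-digested library per mark, and the labels give no genotype or treatment. Mouse numbers under 100 belong to 3 aged group 3 and 6 young animals, and numbers from 100 up to 4 animals of aged group 1, 6 of aged group 2, 7 of aged group 3 and 1 young animal, so mouse number and age group overlap in part. The animals' stage of the oestrous cycle and breeding history are not given in the sources used here. A tissue piece mixes epithelium, stroma, vessels, leukocytes and muscle, and fewer cells of a type and less H3K27ac per cell cannot be told apart.

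Enhancers are bound by transcription factors that recruit the acetyltransferases p300 and CBP, which place H3K27ac on neighbouring nucleosomes. They act on promoters over long distances and are used by fewer cell types than promoters are. In the uterus, distal elements are known to carry receptors for oestrogen and progesterone and factors such as FOXA2 in glands and FOXO1 in stroma.

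H3K27ac libraries held 7.604 M to 16.945 M reads (median 11.162 M), of which 32.3% to 48.7% fell in peaks. The median intergenic region held 25 to 50 reads per library, a counting error of 0.2 to 0.29 on the log2 scale, and 11 regions held no reads in all 27 libraries. Levels below are quantile-normalized log2 RPKM, reads scaled to region length and library size. Differences are log2 differences of group means, aged minus young, with the standard error (SE) of limma, and a region was called at a Benjamini-Hochberg adjusted p under 0.05 over all 54354 peaks. Library names carry a code that opens with a digit whose meaning is not stated. Digit 6 is carried by 4 libraries, aged group 2 replicate 6 and aged group 3 replicates 7, 8 and 9, and by no young library. Digit 1 is also carried by no young library, only by replicate 1 of each aged group. Digit 7 is carried by young replicates 5, 6 and 7 and aged group 3 replicate 10, so digit and age group overlap in part.

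The regions had a median width of 1493 bases (quartiles 1018 and 2198) and together covered 13.7 Mb. Their median level was 1.05, against 1.08 for peaks in gene bodies without H3K4me3 and 1.71 for gene-linked peaks with H3K4me3. The nearest H3K4me3 peak lay a median of 26.2 kb away (quartiles 10.5 and 65.3 kb), and 117 regions had one within 1 kb. The nearest named gene lay a median of 36.9 kb away (quartiles 15.1 and 95.9 kb), 1840 regions lay over 100 kb from one, and 3217 different genes were nearest to at least 1 region. Names below are those of the nearest gene, and nothing in the files links a region to that gene's regulation. RefSeq placed 1258 regions on a gene extent, 1075 of them on a long non-coding RNA and 137 on a protein-coding gene, so intergenic here means without a gene in the authors' table.

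RefSeq start windows, 250 bases before to 50 after a gene start on GRCm38.p6, gave the only base sequence held here for these regions. Of them 178 lay wholly within 154 regions, and 176 belonged to predicted long non-coding RNAs. Searched on both strands, AP-1 (TGANTCA) was in 14.6% of these windows, 7.85% of all 32619 windows and 5.07% of the 13494 within H3K27ac peaks that overlap H3K4me3. The TEAD motif GGAATG was in 16.9%, 14.6% and 12.1% of the same 3 sets. The motif AGATAA, bound by zinc-finger factors of the GATA family, was in 13.5%, 11.2% and 5.69%. Forkhead (TGTTTAC) was in 2.81%, 3.67% and 2.69%, the steroid receptor palindrome in 1.69%, 0.478% and 0.326%, and the palindromic oestrogen response element in 0% of the windows within these regions and 0.0705% of all. Median GC content was 49%, 53% and 61% in these 3 sets, so the letters of the motifs are not equally frequent in them, and a match is a description, not a binding site.

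Of the 154 regions, 30 were called higher and 32 lower in aged group 3 than in young uteri. Over the whole class 16.1% were higher and 16.9% lower. The windows printed each hold at least 1 motif. They lie in the 3 higher and 3 lower regions of smallest p among regions with such a window that could be shown. This choice was made after the values were seen, and the called regions of smallest p need not hold a motif. Capitals mark motif matches on either strand.
Gm42235: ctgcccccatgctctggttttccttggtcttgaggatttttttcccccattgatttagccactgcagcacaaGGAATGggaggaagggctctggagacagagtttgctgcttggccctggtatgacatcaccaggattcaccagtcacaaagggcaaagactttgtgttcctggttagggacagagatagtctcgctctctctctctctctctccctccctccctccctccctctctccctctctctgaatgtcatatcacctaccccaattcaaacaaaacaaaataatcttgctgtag
Gm30242: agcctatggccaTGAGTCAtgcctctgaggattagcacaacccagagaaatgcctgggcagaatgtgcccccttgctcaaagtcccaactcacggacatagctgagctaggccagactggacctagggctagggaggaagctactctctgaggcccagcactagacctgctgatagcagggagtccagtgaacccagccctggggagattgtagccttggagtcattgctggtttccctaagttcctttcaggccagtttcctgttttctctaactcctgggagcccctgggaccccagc
Gm28497: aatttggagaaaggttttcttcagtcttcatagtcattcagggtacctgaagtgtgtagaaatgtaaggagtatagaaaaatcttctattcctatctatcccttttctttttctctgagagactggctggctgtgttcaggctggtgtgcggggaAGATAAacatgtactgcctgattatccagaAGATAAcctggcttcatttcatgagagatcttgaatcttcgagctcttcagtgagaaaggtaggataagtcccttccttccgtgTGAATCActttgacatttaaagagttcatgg
Gm51774: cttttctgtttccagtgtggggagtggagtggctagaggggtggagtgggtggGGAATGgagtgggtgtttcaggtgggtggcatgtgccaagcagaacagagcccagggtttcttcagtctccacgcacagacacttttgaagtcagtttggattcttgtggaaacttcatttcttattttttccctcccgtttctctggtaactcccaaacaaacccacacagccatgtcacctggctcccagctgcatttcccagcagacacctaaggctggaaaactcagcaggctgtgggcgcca
Gm51530: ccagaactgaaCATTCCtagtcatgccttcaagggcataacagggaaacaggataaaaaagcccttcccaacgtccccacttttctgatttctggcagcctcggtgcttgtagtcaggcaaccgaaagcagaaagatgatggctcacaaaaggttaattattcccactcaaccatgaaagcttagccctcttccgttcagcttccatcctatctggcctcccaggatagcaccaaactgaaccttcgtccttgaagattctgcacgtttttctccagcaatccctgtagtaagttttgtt
Gm30113: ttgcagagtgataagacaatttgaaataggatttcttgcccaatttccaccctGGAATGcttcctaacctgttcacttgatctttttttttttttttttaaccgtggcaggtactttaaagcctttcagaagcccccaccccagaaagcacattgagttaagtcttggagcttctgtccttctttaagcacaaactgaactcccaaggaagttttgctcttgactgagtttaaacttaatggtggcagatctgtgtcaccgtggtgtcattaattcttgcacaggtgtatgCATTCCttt
The first 3 windows lie in regions that were higher in aged group 3. Gm42235 (chr5:25614218-25614517, plus strand) holds a TEAD match, and its region, nearest to the DNA repair gene Xrcc2, differed by 1.22 ± 0.29 (SE; limma adjusted p = 0.00567). Gm30242 (chr1:132150345-132150644, plus strand) holds an AP-1 match, and its region, nearest to the kinase gene Cdk18, differed by 1.56 ± 0.41 (limma adjusted p = 0.00867). Gm28497 (chr1:69433412-69433711, plus strand) holds an AP-1 and 2 GATA matches, and its region differed by 1.84 ± 0.54 (limma adjusted p = 0.0142). The other three lie in regions that were lower. Gm51774 (chr10:76642808-76643107, plus strand) holds a TEAD match, and its region, 18.3 kb from Col6a2, a collagen VI chain, ran from 0.54 to 2.25 in aged group 3 (median 0.76) against 1.78 to 2.34 in young uteri (median 2.13), a difference of -0.98 ± 0.23 (limma adjusted p = 0.00505). Gm51530 (chr8:45845522-45845821, minus strand), nearest to the cytoskeletal adaptor gene Sorbs2, differed by -0.82 ± 0.22. Gm30113 (chr15:62953966-62954265, plus strand), 457 kb from the nearest H3K4me3 peak, differed by -1.1 ± 0.31 and holds 2 TEAD matches.

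The comparison of aged group 3 with young uteri sets the oldest animals against the youngest. In aged group 3, 1234 regions were higher (16.1%, against 14.4% of all H3K27ac peaks) and 1291 lower (16.9%, against 14.9% of all peaks), by limma. The 2525 called regions made up 33% of the class, against 29.3% of all peaks. By more than 2-fold, 629 were higher (8.22%, against 5.64% of all peaks) and 439 lower (5.73%, against 2.68%). On values as deposited 1351 were higher and 2031 lower, and with median centring 1583 and 1891, and the median difference of the class was -0.23 as deposited and -0.08 after quantile normalization. The counts fell to 118 higher and 66 lower when the fit held a term for the opening digit of the library code, to 135 and 141 without the libraries of digit 6, and to 1 and 1 when it held a term for each library's marker score, the mean epithelial minus the mean stromal level at promoters. All 2525 kept their sign with the digit term and without digit 6, and 1779 did with the score term. The share called was then near that of all peaks, at 2.4% against 2.51% with the digit term and 3.61% against 3.6% without digit 6, and it was 0.0261% against 0.0626% with the score term.

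**Figure D1:**
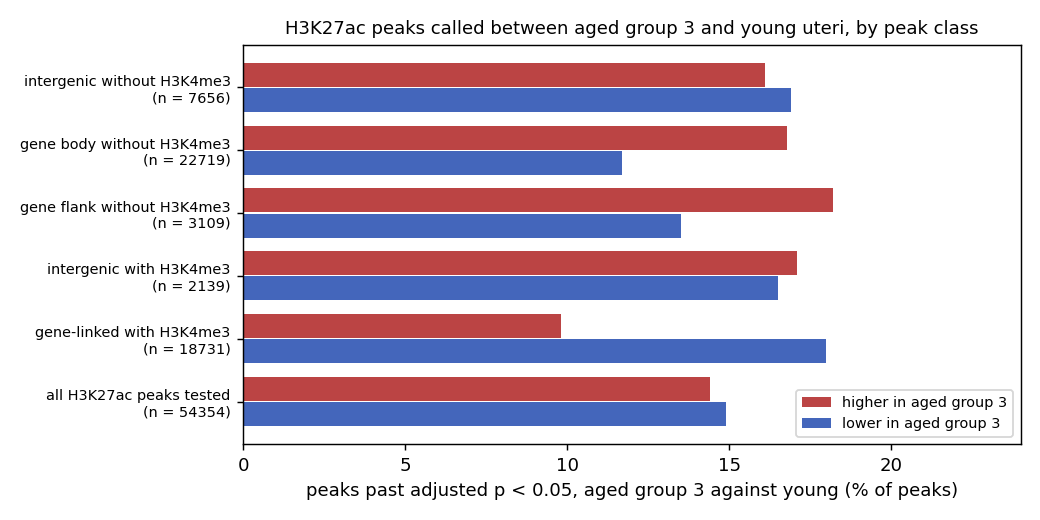
Share of H3K27ac peaks past a limma adjusted p of 0.05 between aged group 3 and young uteri (x axis, percent), by peak class (rows), higher in red and lower in blue. Intergenic regions without H3K4me3 were called higher in 16.1% and lower in 16.9%, while gene bodies without H3K4me3 had 16.8% and 11.7%, and gene-linked peaks with H3K4me3 had 9.8% and 18%.

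The share of peak reads that fell in the regions, a single value per library, was 8.44% ± 0.573 in aged group 3 and 8.2% ± 0.309 in young uteri (SD; exact permutation p = 0.336, two-sided, adjusted p = 0.661 over 5 comparisons). Their median level relative to gene-linked peaks without H3K4me3 was -0.0515 ± 0.0759 in aged group 3 and 0.0355 ± 0.0479 in young uteri. That difference of -0.0869 did not pass after adjustment (exact permutation p = 0.0168, adjusted p = 0.0841). It was -0.0458 within library-code digits (exact permutation p = 0.25) and -0.0891 within series of mouse numbers (exact permutation p = 0.0253). Without aged group 3 replicate 10 it was -0.104 and passed (exact permutation adjusted p = 0.00219), and without young replicate 4 it was -0.0992 and passed (exact permutation adjusted p = 0.0493). Single regions varied more between animals in aged group 3, with a median SD of 0.59 against 0.46 in young uteri, and the same 2 values over all peaks were 0.45 and 0.37.

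The intermediate ages had no called region. By limma 0 regions passed when aged group 2 was set against young (0.011% of all peaks did), and 0 passed in the other contrasts of neighbouring ages (0.0% of all peaks). At an unadjusted p under 0.05, aged group 2 had 331 higher and 392 lower than young (4.32% and 5.12%, against 4.97% and 3.96% of all peaks). Aged group 1 had 118 higher and 150 lower than young (1.54% and 1.96%, against 2.15% and 1.77%). Aged group 2 had 127 higher and 67 lower than aged group 1 (1.66% and 0.875%, against 1.58% and 1.2%). Aged group 3 had 643 higher and 613 lower than aged group 2 (8.4% and 8.01%, against 7.03% and 9.01%). With each animal's age in weeks as a linear term, 1348 regions rose with age (17.6%, against 15.7% of all peaks) and 1485 fell (19.4%, against 16.5%).

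All aged group 3 libraries lay above all young libraries in 20 regions (0.261%, against 0.35% of all peaks) and below them in 13 (0.17%, against 0.21%). The 20 regions named, 10 in each direction, had the smallest p among called regions whose higher group mean reached 0.93. Their limma adjusted p ran from 0.000233 to 0.00185. The smallest limma adjusted p in the class was 2.31e-05, in a region outside these 20. They were chosen by p and by the level of their higher group, so their sizes and separation are a description. All 20 stayed past the threshold with the digit term (largest limma adjusted p 0.0377), and 1, at Gas1, did with the score term (limma adjusted p 0.0287 to 0.681 over the 20).

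Among the 20 named regions, the smallest p belonged to a region on chr9:12492045-12493357, 749 kb from Jrkl. It ran from 0.15 to 2.48 log2 RPKM in aged group 3 (median 1.41), against -2.21 to -0.19 in young uteri (median -0.81). The groups did not overlap, and the difference was 2.33 ± 0.35 (SE; limma adjusted p = 0.000233). Aged group 1 animals had 0.47, 0.09, -0.28 and -0.39, and aged group 2 ran from -0.4 to 1.75 (median 0.52), so both lay between the 2 extremes on average.

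A region 16 kb from Il6st, which encodes the gp130 receptor shared by interleukin 6 and leukaemia inhibitory factor (chr13:112445228-112448052), ran from 0.15 to 2.52 in aged group 3 (median 2.16) and from -1.48 to 0.33 in young uteri (median -0.65). Here 8 of 10 aged group 3 libraries lay above every young library (difference 2.13 ± 0.37; limma adjusted p = 0.00119). H3K4me3 at the Il6st gene's own highest peak was also higher, by 0.51 ± 0.12 (limma adjusted p = 0.00293). A region 18.7 kb from Degs1, the dihydroceramide desaturase of sphingolipid synthesis (chr1:182254634-182257254), ran from 0.92 to 2.46 in aged group 3 and from -1.04 to 0.48 in young uteri, with no overlap. This region overlaps Gm33887, a predicted gene that RefSeq lists as protein-coding, and lies 0.676 kb from an H3K4me3 peak. H3K4me3 at Degs1 itself differed by -0.11 ± 0.077, which did not pass.

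The other named higher regions lay nearest to Atp6v0c-ps2, Pwwp2b, Csnk1g3, Trim36, Tmsb4x, Tnk2 and Nipal2, with differences of 1.22 to 2.33. Tmsb4x encodes thymosin beta 4, which binds actin monomers, Tnk2 a non-receptor tyrosine kinase, and Trim36 a ubiquitin ligase. The region beside Trim36 (chr18:46088084-46090699) ran from -0.17 to 2.31 in aged group 3, against -2.14 to -0.32 in young uteri, and the groups did not overlap. The region beside Tmsb4x (chrX:167151096-167152347) ran from 0.26 to 2.68 in aged group 3, against -0.33 to 0.95 in young uteri, with 9 of 10 aged group 3 libraries above every young library.

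Among the named lower regions, the one of smallest p lay 92.4 kb from Gas1, which encodes a membrane-anchored co-receptor of hedgehog signalling (chr13:60269974-60271277). It ran from -1.12 to 0.77 in aged group 3 (median -0.29), against 0.75 to 1.57 in young uteri (median 1.28). All but 1 of the aged group 3 libraries lay below every young library (difference -1.44 ± 0.24; limma adjusted p = 0.000913). Of the 17 regions nearest to Gas1, 7 were lower and none higher. H3K4me3 at Gas1 was lower too, by -0.79 ± 0.18 (limma adjusted p = 0.00226).

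A region 627 kb from Cdh11, a cadherin of mesenchymal cells (chr8:103412983-103414749), ran from -0.52 to 0.96 in aged group 3 (median 0.39) and from 1.13 to 1.84 in young uteri (median 1.39). The groups did not overlap, and the difference was -1.11 ± 0.21 (limma adjusted p = 0.00185). A region 404 kb from Igfbp3, which binds insulin-like growth factors (chr11:7619910-7621177), ran from -0.53 to 1.46 in aged group 3 and from 1.33 to 2.08 in young uteri, a difference of -1.33 ± 0.25. The others were nearest to the focal adhesion gene Tns3, to Lypd4, to the cysteine synthesis gene Cth, to Phlda1, to Sash1, and to Cd34, a surface protein of endothelial and progenitor cells, with differences of -1.03 to -1.43. In the Phlda1 region 1 aged group 3 library, replicate 10, had 1.98, while the other nine had at most 0.56.

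Regions beside Pwwp2b, which encodes a chromatin reader, were called in both directions. At chr7:139285419-139286717 levels were 1.08 to 3.21 in aged group 3 (median 2.5) and 0.17 to 1.67 in young uteri (median 0.71), a difference of 1.49 ± 0.24 (limma adjusted p = 0.000484). Farther from the gene, at chr7:139308135-139309643, they were 0.39 to 1.92 in aged group 3 (median 0.89) and 1.91 to 2.73 in young uteri (median 2.33), a difference of -1.19 ± 0.22 (limma adjusted p = 0.00171). H3K4me3 at Pwwp2b differed by 0.1 ± 0.077 and was not called.

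**Figure D2:**
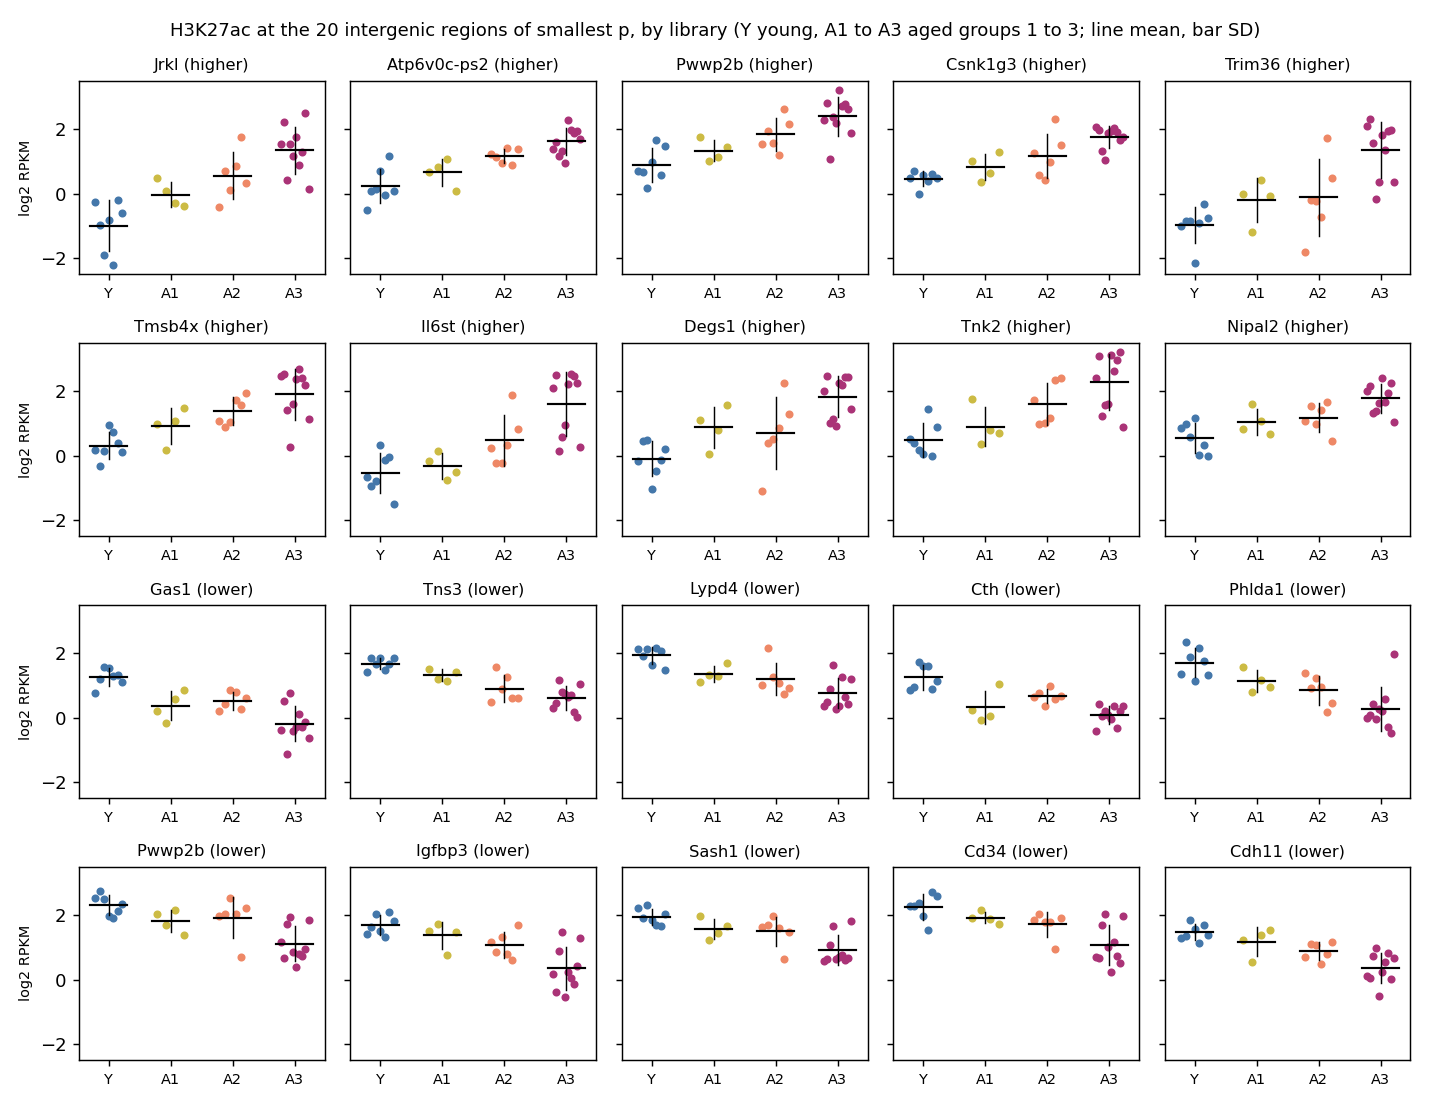
H3K27ac level (y axis, quantile-normalized log2 RPKM) in each library at the 20 named regions, 1 panel each under the nearest gene's name, by age group on the x axis. Points are animals, the line is the group mean and the bar 1 SD. In the Jrkl, Trim36, Degs1, Csnk1g3, Tns3, Cth and Cdh11 panels the aged group 3 and young points do not overlap.

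Of the 5 regions of highest mean level, 1 was called. The one beside Ift81 (chr5:122524123-122531336), a gene of the transport machinery of cilia, averaged 2.59 ± 0.16 in aged group 3 and 2.6 ± 0.22 in young uteri (SD). Those beside Stpg2, Rnf24 and Akt2-ps differed by 0.15, 0.38 and 0.06 and were not called. The one beside Sh3bp4, which acts in endocytosis (chr1:89181785-89185234), was lower, at 2.17 ± 0.5 in aged group 3 and 2.88 ± 0.2 in young uteri (SD; limma adjusted p = 0.00793). Among the 1914 regions of lowest mean level 26.3% were higher and 16.1% lower, and among the 1914 of highest mean level 15.1% were higher and 16% lower. The mean level comes from the same libraries as the difference, and peaks were found by their signal, so these shares are a description.

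Regions beside genes of the endometrial stroma and its matrix were mostly lower. The stroma list had 73 regions, of which 42 were lower and 3 higher (median difference -0.82). Over all 7656 regions 16.9% were lower and 16.1% higher, with a median of -0.08. Dcn, the matrix proteoglycan decorin, had 18 regions within 319 kb, of which 15 were lower and none higher, from -1.25 to -0.3. Cdh11 had 8 lower of 10 and the collagen III gene Col3a1 4 of 4, while Nr2f2, the nuclear receptor COUP-TFII that acts under progesterone in stroma, had 5 lower and 1 higher of 17. The collagen and matrix list had 37 lower and none higher of 68 (median -0.74), among them all 3 regions of Col6a1, 5 of 6 of Col6a2 and both of Lum, the proteoglycan lumican. Dcn, Col3a1, Col1a1, Lum and Col1a2 are in both lists, so their lower regions, 15 of them at Dcn, count in both. Regions of 1 locus are not independent of each other, and Dcn and Lum lie side by side.

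Regions beside epithelial genes went the other way. Of 47, 16 were higher and 2 lower (median 0.46). Grhl2, a transcription factor of epithelial identity, had 3 higher of 7, the surface adhesion gene Epcam 3 of 5, the tight junction gene Cldn4 3 of 4, and Elf3, an epithelial ETS factor, 2 of 3. Krt19, Prom1 and Esrp1 had 1 higher region each. Other genes of the list did not share the rise. Klf5 had 1 higher and 1 lower of 4, and no region was called at Sox17, Cldn3, Wnt7a or Pax8. The medians at those last genes were -0.08, 0.02, -0.49 and -0.35. A region 202 kb from Foxa2, the transcription factor of uterine glands (chr2:147837840-147840755), averaged 1.51 ± 0.33 in aged group 3 and 0.45 ± 0.45 in young uteri (SD), a difference of 1.06 ± 0.21 (limma adjusted p = 0.00226). H3K4me3 at Foxa2 was higher by 1.98 ± 0.33 (limma adjusted p = 0.000197). Another Foxa2 region was lower.

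H3K27ac at promoters of the same cell type lists moved in the same directions. Of 19 epithelial genes with a promoter peak 12 were higher and none lower, and the list's mean level ran from 1.35 to 2.51 in aged group 3 against 1.35 to 2.09 in young uteri. Of 18 stromal genes 15 were lower and none higher, with mean levels of 0.79 to 2.29 in aged group 3 against 1.74 to 2.38. Foxa2, Krt7 and Muc1 were among 9 epithelial genes, and Hoxa10, Hoxa11 and Hand2 among 6 stromal genes, with no such peak under their own name. The marker score is the first list level minus the second. With the score term 0 stromal, matrix and epithelial regions were called, and the stromal, matrix and epithelial medians were -0.03, 0.05 and -0.14. The score comes from promoters of the same epithelial and stromal genes in the same libraries. In the whole class only 1 higher and 1 lower region were called with it, so that fit shows nothing particular to these lists. With the digit term 8 stromal regions were lower and 1 higher, and 2 epithelial regions were higher. Without digit 6, 11 stromal regions were lower and 2 epithelial regions higher. The matrix list had 5 lower with the digit term and 7 without digit 6. Over the whole class these settings called 2.4% and 3.61%.

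**Figure D3:**
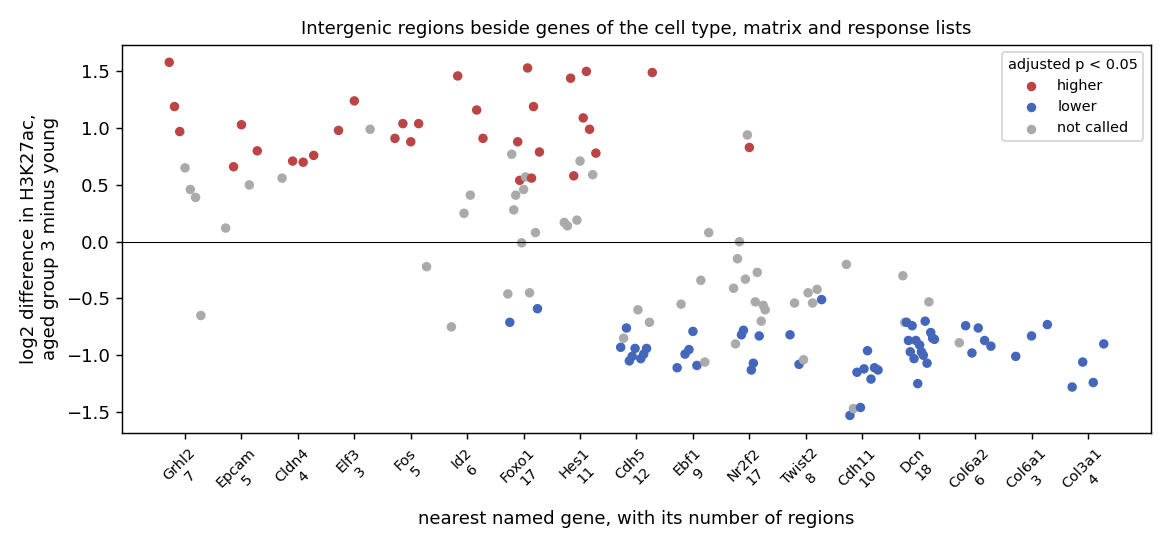
Difference in H3K27ac between aged group 3 and young uteri (y axis, log2, aged group 3 minus young) of each intergenic region, by nearest gene (x axis, with the number of regions). Red points are called higher, blue lower and grey not called. All 18 Dcn points lie below 0, and Fos, Cldn4 and Hes1 carry higher calls only.

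The remaining lists were smaller or mixed. For scale, 16.1% of the whole class was higher and 16.9% lower. With the digit term 2.4% of it was called, and without digit 6 3.61%. Vessel genes had 12 lower and 5 higher of 28. The lower ones lay beside Cdh5, the endothelial cadherin (8 of 12), which neighbours Cdh11, and Emcn (4 of 8), each with 1 higher region too, and single regions of Egfl7, Tie1 and Vwf were higher. With the digit term, and without digit 6, 0 vessel regions were called. Immediate early genes had 13 higher and 2 lower of 38, with 4 of 5 beside Fos, a subunit of AP-1, and both beside Egr2, though none was higher with the digit term or without digit 6. At the promoters of these genes H3K27ac was higher at 2 and lower at 6 of 17 (median -0.18). Beside leukocyte genes 4 of 9 were higher, 3 of them at Runx1, the blood transcription factor. The fourth, 5.87 kb from Laptm5, a lysosomal protein of blood cells (chr4:130905609-130907021), ran from 0.05 to 2.25 in aged group 3, against -0.7 to -0.11 in young uteri, with no overlap (means 1.03 and -0.31; limma adjusted p = 0.002). Of the 9 regions beside Ebf1, a B cell factor also used in mesenchymal cells, 5 were lower, and the list of B and plasma cell genes, with 1 higher and 6 lower of 12, had 0 called with the digit term or without digit 6. T and NK cell genes had 1 lower of 5, macrophage genes 1 higher of 6, smooth muscle genes 1 higher and 2 lower of 14, the interferon gene Irf1 2 higher of 3, and Ywhaz of the control list 1 higher of 3.

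Regions beside hormone and signalling genes showed no common direction. Over the whole class 16.1% of regions were higher and 16.9% lower, and 2.4% were called with the digit term. Oestrogen response genes had 3 higher and 4 lower of 30, with neither region of the progesterone receptor gene Pgr called and 2 of 4 beside the oestrogen receptor gene Esr1 lower. Progesterone response genes had 8 higher and 9 lower of 46. Foxo1, a factor of decidual stroma, had 6 higher and 2 lower of 17, and the one of smallest p (chr3:52662297-52664819, 312 kb away) averaged 2.06 ± 0.37 in aged group 3 and 1.27 ± 0.28 in young uteri (SD; limma adjusted p = 0.0041). TGF-beta and BMP genes had 7 higher and 6 lower of 53, with 3 of 6 higher at Id2, an inhibitor of helix-loop-helix factors. Wnt genes had 1 higher and 5 lower of 40. The medians of these last 2 lists, 0.06 and 0.13, were -0.02 and -0.01 on values as deposited, and the Wnt median was -0.2 without regions close to a RefSeq gene. The lymphatic list and the adipocyte and mesothelium list had 1 region each, at Mmrn1 and Lep, and neither was called. With the digit term 0 progesterone and 0 TGF-beta and BMP regions were called, and 1 oestrogen region, which was lower.

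Genes with many regions, chosen after their values were seen, included both kinds. Among 121 genes nearest to at least 8 regions, the lower regions were at least as many as all the others at 16 and the higher ones at 6, and 47 genes had calls in both directions. Lmo7, which encodes a LIM domain protein, had 9 lower of 12, and Npvf, a neuropeptide gene, 13 lower and 1 higher of 20. Hes1, a repressor induced by Notch, had 6 higher of 11, and its neighbour Opa1, the mitochondrial fusion GTPase, 8 of 11. Both lie on chromosome 16, where 26.8% of 298 regions were higher and 9.06% lower, with 41 different nearest genes among the higher ones. The other chromosomes together had 15.7% higher and 17.2% lower, and none exceeded 19.3% higher. Chromosome 16 peaks outside the class were 17.9% higher and 14.0% lower, against 13.9% and 14.6% on the other chromosomes.

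Calls followed the distance to the nearest named gene. Within 10 kb, 19.1% of 1162 regions were higher and 12.8% lower in aged group 3, and beyond 200 kb 10.1% of 814 were higher and 27.5% lower. The median difference was lower in each farther bin, from 0.059 within 10 kb through 0.041, -0.059, -0.108 and -0.2 to -0.46 beyond 200 kb. With the digit term 1.55% of the near regions were higher and 0.602% lower, and 1.11% of the far ones were higher and 1.11% lower. Without digit 6 the near shares were 1.81% and 1.46% and the far shares 1.6% and 2.83%. The median differences in these 2 settings were 0.06 and 0.07 near and -0.29 and -0.37 far. In 1 value per library, the median of the far regions minus that of the near ones was -0.33 ± 0.32 in aged group 3 and 0.1 ± 0.17 in young uteri (SD), a difference of -0.43 (exact permutation p = 0.00715, adjusted p = 0.0358 over 5 comparisons). The test was chosen after the pattern had been seen. Aged group 2 averaged -0.12 and aged group 1 -0.04, and neither differed from young past the threshold (exact permutation adjusted p = 0.222 and 0.345). Within library-code digits the difference was -0.25 (exact permutation p = 0.167), and within mouse number series -0.49 (exact permutation p = 0.00893). Leaving out 1 library at a time gave -0.51 to -0.39, with exact permutation p of 0.000524 to 0.0154. Aged group 3 replicates 3 and 4, at -0.12 and -0.05, lay within the young range of -0.13 to 0.29, and replicate 10, at 0.39, lay above every young library. The other seven lay below every young library. With the score term the median difference was 0.05 in the far regions and 0.01 in the near ones.

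**Figure D4:**
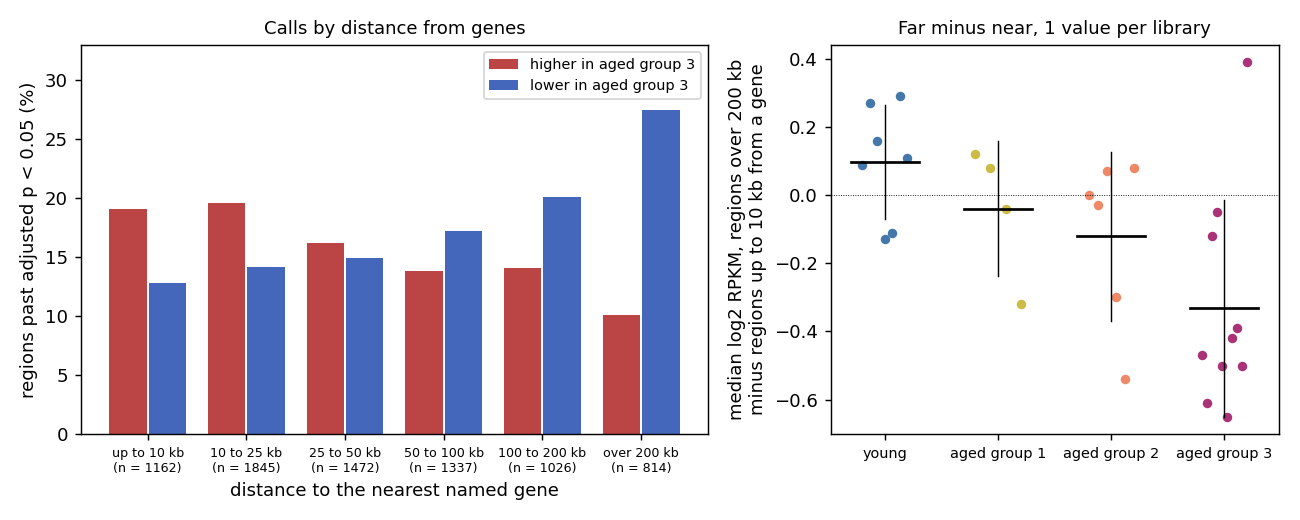
Left, share of regions called higher (red) or lower (blue) in aged group 3 against young uteri (y axis, percent) by distance to the nearest named gene (x axis). Right, median level of regions over 200 kb minus that of regions up to 10 kb from a gene (y axis, log2), 1 point per library, with group mean and SD. The share lower is 27.5% beyond 200 kb and 12.8% within 10 kb, and 7 of the 10 aged group 3 points lie at or below -0.39.

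Neighbouring regions that were both called mostly had the same direction. Over the whole class 16.1% were higher and 16.9% lower, against 14.4% and 14.9% of all H3K27ac peaks. Neighbours were not counted in other peak classes, so the agreement is not shown to be particular to these regions. Regions that lie close together are not independent of each other. Joined across gaps no longer than those commonly used to stitch enhancers into super-enhancers, the regions formed 4810 groups, of which 3231 were single regions, 148 held at least 5 and the largest held 17. Of 382 groups with at least 2 called regions, 346 had calls in 1 direction and 36 in both. Among 2846 adjacent pairs within a group, 393 were called in the same direction and 17 in opposite ones. The widest contrast was beside Lama4, a laminin chain of vessel basement membranes. There a region at chr10:38897015-38898635 was higher by 1.41 (limma adjusted p = 0.0132) and one 9036 bases away, at chr10:38907671-38909594, lower by -1.08 (limma adjusted p = 0.00302). Beside Nt5e, which makes adenosine outside cells, a lower region (-1.09) lay 568 bases from a higher one (0.54) and 2124 bases from another (0.8).

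The largest group, 17 regions over 82.9 kb beside the choline transporter-like gene Slc44a3, had higher calls at its ends and lower calls inside. The 3 higher calls at one end differed by 0.86 to 1.26 and the 2 at the other by 0.79 and 1.85, while the 2 lower ones differed by -0.47 and -0.82. The outermost (chr3:121625122-121626971) averaged 1.23 in aged group 3 and -0.61 in young uteri (limma adjusted p = 0.00751). The group of 12 beside Rxra, the retinoid X receptor, was uniform, with all 12 differences between -0.8 and -0.3 and 3 called. Its mean level was 0.83 ± 0.58 in aged group 3 and 1.41 ± 0.34 in young uteri (SD). In the group of 13 beside Rad51b 5 were lower and none higher, in that of 11 beside Ccr7 1 was higher and 2 lower, and in that of 11 beside Col6a3 2 were lower.

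H3K4me3 in the same animals, called at 30.7% of its 25827 peaks (14.2% higher, 16.4% lower), was read at the nearest gene of each region. Of 669 genes nearest to a higher region within 200 kb and with an H3K4me3 peak, H3K4me3 was higher at 23% and lower at 10.2%. Of 575 genes nearest to a lower region it was higher at 6.96% and lower at 36.2%. All 15805 genes with a peak gave 10.3% and 17%. A gene can stand in both sets, and the 2 marks share animals, so these shares are a description.

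A single axis held much of the variation among animals. The first principal component of the 7656 regions took 45.9% of the variance. It averaged 0.336 ± 0.494 in aged group 3 and -0.345 ± 0.197 in young uteri (SD), a difference of 0.681 (exact permutation p = 0.00643). Aged group 3 replicates 3, 4 and 10 had -0.293, -0.239 and -0.475, within the young range of -0.51 to 0.0146, and aged group 2 replicate 5 had 0.652. The marker score averaged 0.819 ± 0.867 in aged group 3 and -0.525 ± 0.486 in young uteri (SD; exact permutation p = 0.00381). The libraries fell into 2 separate clusters by score, split after the values were seen, so no correlation over all 27 is given. The cluster of 8 libraries, 7 of aged group 3 and 1 of aged group 2, had scores of 1.08 to 1.71 and component values of 0.248 to 0.801. The other 19, with all young and all aged group 1 libraries, 5 of aged group 2 and 3 of aged group 3, had scores of -0.94 to 0.262 and component values of -0.51 to 0.167. By library code, the aged group 3 libraries among the 8 carry digits 1, 2, 5 and 6, and the aged group 2 library digit 5. Aged group 3 replicates 3, 4 and 10 carry digits 3, 4 and 7. The 19 also hold libraries of digits 1, 2, 5 and 6, among them young replicates 1 (digit 2) and 4 (digit 5). The age differences in score and component were not tested within digits. Within the 8, Pearson r was 0.51 (exact permutation p = 0.128) and Spearman rho 0.67 (exact permutation p = 0.0831), neither changed by adjustment over the 2 clusters, and r was 0.01 without the 2 libraries farthest from the median score. Within the 19, r was 0.72 (permutation p = 0.0005, adjusted 0.001) and rho 0.8 (permutation p = 0.0001, adjusted 0.0002), and r was 0.66 without the 2 farthest. These 19 mix all 4 age groups and were split by the score itself, so the values do not separate the score from age. Within the 7 young libraries alone r was 0.9 (permutation p = 0.0272) and rho 0.71 (permutation p = 0.0878), and r was 0.49 without the 2 farthest. In aged group 3 r was 0.95 and rho 0.89, and r was 0.91 without the 2 farthest. In aged group 2 r was 0.89 and rho 0.89, and r was 0.53 without the 2 farthest. Each of these 2 aged groups spans both clusters, which by itself raises r. Score and component come from different peaks of the same libraries.

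**Figure D5:**
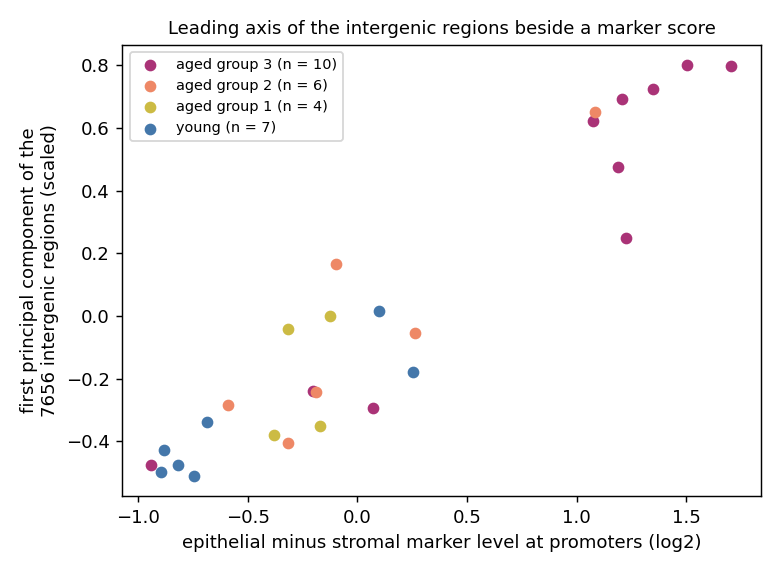
First principal component of the 7656 intergenic regions (y axis, scaled) against the epithelial minus stromal marker level at promoters (x axis, log2), 1 point per library, coloured by age group. Of the 10 aged group 3 points, 7 lie above every young point and 3 lie within the young range of -0.51 to 0.0146.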

How the data were processed

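Regions, gene lists and tests were chosen with earlier results of these data known. The authors deposited 2 tables of log2 RPKM, 1 per mark, peaks in rows and libraries in columns, per the file headers. The submitters' processing notes list, with no role for any, the build GRCm38 and the tools deepTools 3.5.1, DiffBind 3.8.0, Bowtie2, MACS2 2.2.9.1, ChIPseeker and DESeq2. RPKM scales for region length and library total, so a library with more reads outside peaks has lower values. Total reads were recovered from the deposited log2 values, which gave whole reads within 0.05 in 100.0% of cases.

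Values were quantile normalized over all H3K27ac peaks and fitted with limma 3.58.1 (R 4.3.3, lmFit, eBayes with trend) as 4 group means over 27 libraries, two-sided. The 8 peaks on chromosome Y were left out. The script was tested on simulated data. Each animal has 1 library per mark, and the replicate numbers did not pair animals: correlations of same-numbered deviations between aged group 3 and young ran from -0.33 to 0.304.

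The nearest gene came from the RefSeq table of GRCm38.p6, skipping predicted, clone and small RNA symbols. Named regions were the 10 of smallest p per direction among called regions whose higher group mean reached 0.93, the lower quartile of peaks, with 1 region per gene; the 5 of highest mean; and the smallest p per list. The same rule named none in other contrasts, where none was called. A promoter marker level is the mean, over a list, of the gene's highest H3K27ac peak that overlaps H3K4me3. No sequence of chromosome 18 is shown. Motifs were searched in start windows only, since no genome was used here. The 5 input libraries were not used.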

Additional observations from a re-analysis of the deposited data

Results flagged for a closer look

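Of 168 groups of values at the 42 named regions, 13 held a library far from the rest of its group, and chance gives about 1 in 20. No library stood out in the 5 joined groups of regions or in 4 measures with 1 value per library, which brought the groups examined to 204. Aged group 3 replicate 10 had 1.98 in the Phlda1 region, against at most 0.56 in the others, and this library also stood with the young ones on the leading axis. Aged group 3 replicate 5 had 3.11 in the Akt2-ps region, where the others reached 2.65.

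Aged group 2 replicate 5 was lowest of its group in 3 regions, with 0.69 in the lower Pwwp2b region, 0.94 in the Cd34 region and 1.85 in the Sh3bp4 region. It also had the highest leading-axis value of its group. Aged group 2 replicate 2 had 2.14 in the Lypd4 region, where the others reached 1.24. Aged group 1 replicate 2 had 0.09 in the Gata3 region, where the other three had 1.54 to 1.66.

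Young replicate 4 had -2.14 in the Trim36 region (others -1.01 to -0.32), 0.96 in the Smtn region (others 1.69 to 2.06) and 1.85 in the Foxo1 region (others 1.02 to 1.3). Young replicate 3 had -0.02 in the Csnk1g3 region (others 0.4 to 0.7), replicate 6 had -1.1 in the Irf1 region (others -0.32 to 0.1) and replicate 7 had 1.39 in the Akt2-ps region (others 2.39 to 2.78).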

How the results depend on the processing

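Of the 2525 regions called between aged group 3 and young, 2459 were also called the same way on values as deposited (3382 called) and 2519 with median centring (3474). Values as deposited shifted the median difference of all peaks to -0.14, against -0.06 after quantile normalization. A filter on low values left 1348 called of 4794 measured, a term for the mouse number series 1225, the digit term 184, leaving out digit 6 276, the score term 2, and a further demand of over 2-fold 1068. With the 2 groups alone 2310 were called, without regions within 1 kb of H3K4me3 2491 of 7539, and without those within 5 kb of a RefSeq gene 1908 of 5803. Leaving out 1 library gave 1652 to 3538, with 1652 without young replicate 2 and 1672 without young replicate 3. The replicate block gave 2760, though the numbers do not pair animals. For aged group 2 against young, 1 region was called on values as deposited, 1 with median centring and 1 with the replicate block. For aged group 3 against aged group 2, leaving out 1 library gave 0 to 3, the 3 without aged group 2 replicate 5. The 20 named regions kept their calls without each library in turn (340 fits) and under the other settings, apart from the score term and the filter, which kept 12 of 20 for measurement. The cause of these changes was not tested.

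Differences in the share of reads that missed the threshold changed sign in places. Aged group 2 minus young was -0.0632 percentage points without digit 6, aged group 3 minus aged group 2 was -0.0429 within digits, and aged group 1 minus young was 0.0916 within mouse number series. Leaving out 1 library gave -0.265 to 0.116 for aged group 1 minus young, -0.0632 to 0.189 for aged group 2 minus young and -0.0257 to 0.355 for aged group 2 minus aged group 1. For the level relative to gene-linked peaks, aged group 2 minus aged group 1 was 0.00328 with the filter. Leaving out 1 library gave -0.0386 to 0.0243 for it and -0.104 to -0.0708 for aged group 3 minus young. The far minus near difference was -0.25 within digits. About 25 to 50 reads per region limit what single regions can show.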
